A study of Mus musculus with 73 samples.

Results

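The fragments described here are the 20 synthetic control sequences of a reporter assay in which pairs of DNA fragments were tested in mouse embryonic stem cells. They were found as every row of the activity table with a control in both positions, which gave 20 of 79 fragments and 2584 of 110180 measured combinations. Of these fragments, 5 are randomly generated sequences (RandomE1 to RandomE5) and 15 are shuffled versions of 5 DNase hypersensitive sites (E6, E27, E30, E46 and E95, each shuffled 3 times). The plasmid libraries each carried 1 promoter in front of a barcoded reporter gene and a pair of fragments downstream of it, next to the barcode (position 1) and farther away (position 2), in either strand. There were 8 libraries, with the promoters of *Lefty1*, *Tbx3*, *Sox2*, *Fgf5*, *Nanog*, *Klf2*, *Otx2* and the housekeeping gene *Ap1m1*. Each was transfected into E14TG2a cells, a male mouse embryonic stem cell line grown in 2i+LIF. RNA was taken 24 hours later in 3 biological replicates. No group was treated otherwise, so the groups compared differ in the promoter or in the inserted fragments.

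An enhancer is a stretch of DNA bound by transcription factors that raises the output of a promoter elsewhere on the same DNA molecule. Plasmid reporters measure this as barcode RNA per barcode DNA, and the promoter's own output has to be read from plasmids with inserts that carry no enhancer. Sequences whose bases have been put in random order keep the length and base content of a real element while their binding sites are broken up, but new sites can arise by chance. The controls set the zero point for every enhancer in the assay, so their differences from one another are part of the error of every enhancer value.

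All 20 controls share the same 22 bases at the start and the same 21 bases at the end, with 450 designed bases between them (438 in RandomE3). They are synthetic and have no position in the genome. The shared ends are shown first, followed by the first 250 bases of the controls with the highest and the lowest values with control partners (E46-shuffled2 and E95-shuffled1) and of those with the largest differences between strands (E27-shuffled1 and E6-shuffled1). Capitals mark the shared start, and the sequences are the plus strand, 5′ to 3′.
shared start: gaagtgccattccgcctgacct
shared end: aggctaggtggaggctcagtg
E46-shuffled2: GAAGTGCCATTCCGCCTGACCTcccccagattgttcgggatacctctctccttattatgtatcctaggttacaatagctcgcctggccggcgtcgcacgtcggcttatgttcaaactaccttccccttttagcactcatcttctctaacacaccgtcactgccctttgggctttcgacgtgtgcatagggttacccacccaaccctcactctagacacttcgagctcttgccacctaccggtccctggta
E95-shuffled1: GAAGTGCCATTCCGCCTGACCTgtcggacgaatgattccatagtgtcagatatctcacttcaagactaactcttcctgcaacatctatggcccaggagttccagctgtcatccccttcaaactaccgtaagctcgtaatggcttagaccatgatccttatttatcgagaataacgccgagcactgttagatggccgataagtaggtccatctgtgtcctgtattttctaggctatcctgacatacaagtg
E27-shuffled1: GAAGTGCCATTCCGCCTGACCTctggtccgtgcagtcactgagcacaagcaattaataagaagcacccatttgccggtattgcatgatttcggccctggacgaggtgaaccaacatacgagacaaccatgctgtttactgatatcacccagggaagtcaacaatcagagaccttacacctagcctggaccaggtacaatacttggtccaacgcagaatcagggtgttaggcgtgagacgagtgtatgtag
E6-shuffled1: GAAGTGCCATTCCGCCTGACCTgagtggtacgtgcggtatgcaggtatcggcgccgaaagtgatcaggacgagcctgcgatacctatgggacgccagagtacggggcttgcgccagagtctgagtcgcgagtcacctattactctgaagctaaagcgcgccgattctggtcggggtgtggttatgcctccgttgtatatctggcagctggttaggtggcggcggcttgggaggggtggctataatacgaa

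The measure is the activity, the barcode cDNA over the barcode plasmid DNA, averaged by the authors over the barcodes of a combination. Barcode numbers are not in the table used here, so the depth behind a single combination is unknown. Between 221 and 477 control-control combinations were measured per library, except for *Fgf5* with 60. A value of 0 in at least 1 replicate was found for 76 combinations, 37 of them in *Fgf5* and 34 in *Lefty1*, and the remaining 2508 were analysed. Only 23 of these were in *Fgf5*, where E46-shuffled3, E6-shuffled2 and E6-shuffled3 alone had the minimum of 5 combinations, so comparisons among control-control combinations rest mainly on the other 7 libraries. The 2508 combinations covered 296 of 380 possible ordered pairs of different controls, and 113 pairs were measured in each of the other 7 libraries. Controls were used unevenly, from 87 uses for E95-shuffled3 to 528 for E6-shuffled2. No control was paired with itself, and 21 of 69206 enhancer-enhancer combinations held the same enhancer in both positions.

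Control-control combinations were almost all in matching strands. The table listed 1317 combinations as plus-plus and 1169 as minus-minus, against 5 plus-minus and 93 minus-plus, so 96.2% had the same strand, compared with 50.5% of 38390 enhancer-control and 50.1% of the enhancer-enhancer combinations. *Klf2* differed from the other libraries, with 88 minus-plus combinations of 477. The sources used here do not say whether the strand of the fragment in position 2 is given relative to the plasmid or to its sequencing read. Strand is therefore used below as the table lists it.

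Individual controls had values of their own that recurred from promoter to promoter. For each control, library and replicate, the boost index was taken as the median log2 activity over all combinations with a control partner, minus the log2 baseline, which is the median over all control-control combinations of that library and replicate. Averaged over libraries, the boost index ranged from -0.37 for E95-shuffled1 to 0.40 for E46-shuffled2, a difference of 0.78 on the log2 scale. The SD over the 20 controls was 0.23. By an exact sign-flip permutation test over libraries (two-sided, Benjamini-Hochberg adjusted over the 76 fragments tested), 10 of 20 controls differed from the baseline, 3 higher and 7 lower. Of all fragments, enhancers included, 71.1% were called, 61.8% as higher and 9.21% as lower, and each of the 7 fragments called lower was a control. The exact test asks whether a control lay on the same side for most promoters, and with n = 7 libraries it cannot go below p = 0.0156. A limma contrast over the same values called 18 of 20. Without *Fgf5* the count was 12 of 20. With the baseline from shuffled controls alone 10 were called, and 7 of these were among the 10 above in the same direction. With at least 10 combinations per value 7 were called, 6 of them shared in this way. With combinations at 0 kept and a pseudocount, 10 were called and 8 shared. Without combinations below the 5th percentile of activity of their library the count was 1 of 16. This filter kept 1341 of 2508 control-control combinations. It cut on the compared activity itself, with the percentile taken over all combinations of a library, and so took out the low values of controls. The values are relative to the other controls, so that controls above and below the baseline were bound to occur.

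The control with the highest mean was E46-shuffled2. With control partners, the 21 values of its 3 replicates in 7 libraries ranged from 0.09 to 0.80 with a median of 0.39, and none lay below the baseline. By library, its boost index (mean ± SD, n = 3 replicates) was 0.69 ± 0.08 in *Tbx3*, 0.30 ± 0.10 in *Klf2* and 0.31 ± 0.10 in *Ap1m1*. Its replicates were farther apart in *Nanog*, at 0.09, 0.80 and 0.55 over 8 combinations. RandomE5 came next, with 21 values from 0.19 to 0.58 and a median of 0.37, all above the baseline. In *Lefty1* its replicates were 0.58, 0.39 and 0.47, and in *Ap1m1* 0.30, 0.36 and 0.36. Both controls had a mean over libraries of the same size, 0.40 ± 0.14 and 0.37 ± 0.08 (SD, n = 7 libraries), and an adjusted p of 0.0253 by the exact test. RandomE2 followed at 0.15 ± 0.12 (SD, n = 7 libraries, adjusted p = 0.0253, exact test), and its replicate values overlapped the baseline in 4 of 21 cases.

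The low end was shared by E95-shuffled1, RandomE3 and E6-shuffled1, which were not separated from each other by more than their spread over libraries. E95-shuffled1 had 21 values between -0.68 and -0.09, and those of RandomE3 lay between -0.70 and -0.10. Neither had a replicate above the baseline. The *Lefty1* replicates were -0.55, -0.68 and -0.54 for E95-shuffled1 and -0.40, -0.52 and -0.53 for RandomE3. Their means over libraries were -0.37 ± 0.12 and -0.37 ± 0.13 (SD, n = 7 libraries), both with an adjusted p of 0.0253 by the exact test. E6-shuffled1 averaged -0.35 ± 0.17 (SD, n = 7 libraries, adjusted p = 0.0253, exact test). It was lower than the baseline in 19 of 21 values, both exceptions being replicates in *Klf2*, where its mean was -0.01 ± 0.09 (SD, n = 3). E6-shuffled3 was also called, at -0.28 ± 0.29 (SD, n = 8 libraries), as were E95-shuffled2 and E95-shuffled3, both at -0.21, and E30-shuffled2 at -0.14. The other 10 controls, E27-shuffled1, E27-shuffled2, E27-shuffled3, E30-shuffled1, E30-shuffled3, E46-shuffled1, E46-shuffled3, E6-shuffled2, RandomE1 and RandomE4, had means from -0.11 to 0.15 and were not called.

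Each control was also measured beside enhancers, on other plasmids with other barcodes. Here the value is the log2 activity of a combination minus the median of the same enhancer, in the same position and strand, over all of its control partners, and the median was then taken library by library. Between 1191 and 2959 such combinations were measured per control. RandomE5 was highest at 0.37 ± 0.09 (SD, n = 8 libraries), followed by E46-shuffled2 at 0.26 ± 0.05 and RandomE2 at 0.25 ± 0.17. E95-shuffled1 was lowest at -0.37 ± 0.10 (SD, n = 8 libraries), followed by E6-shuffled3 at -0.34 ± 0.19 and E6-shuffled1 at -0.30 ± 0.14. Over the 20 controls, the values beside enhancers and those with control partners had a Pearson r of 0.93, given as a description of 20 sequences that share libraries and baselines. The sign was the same for 18 of 20. E27-shuffled1 and RandomE4, the remaining 2, were near 0 beside enhancers, at -0.01 and -0.03.

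The exact sign-flip test called 15 of 20 controls beside enhancers, 7 higher and 8 lower, against 88.5% of the 78 fragments tested (78.2% higher and 10.3% lower). E95-shuffled1 had 24 values from -0.61 to -0.19, and RandomE5 24 values from 0.04 to 0.58, in both cases entirely on one side. The same held for E27-shuffled2, E30-shuffled3 and E46-shuffled2 on the high side and for E6-shuffled1, E6-shuffled3, E95-shuffled3 and RandomE3 on the low side. All of these had an adjusted p of 0.0098 (exact test), the smallest that 8 libraries and this number of fragments gave. Called in both sets of plasmids, with one sign, were 9 controls: E46-shuffled2, RandomE2 and RandomE5 above, and E30-shuffled2, E6-shuffled1, E6-shuffled3, E95-shuffled1, E95-shuffled3 and RandomE3 below. With control partners, 3 of these did not pass the exact test when some replicates were left out, namely RandomE2 and E30-shuffled2 without replicate 1 (adjusted p = 0.141 and 0.0648) or 2 (0.111 for both) and E95-shuffled3 without replicate 2 or 3 (0.111 and 0.0625).

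Controls varied far less than enhancers, and the ratio of both spreads ranged widely over promoters. In *Lefty1* the SD over the 20 controls beside enhancers was 0.28, against 1.38 over 57 enhancers with control partners. In *Fgf5* these were 0.24 and 1.56. In *Ap1m1*, however, they were 0.18 and 0.29, so that enhancers were spread only 1.57 times as widely as controls. The ratio was 2.93 to 3.19 in *Klf2*, *Otx2* and *Nanog* and 4.59 to 4.89 in *Sox2*, *Tbx3* and *Lefty1*. The values of controls beside enhancers resembled each other between libraries with a median r of 0.89 over 28 pairs of libraries, from 0.47 for *Sox2* with *Ap1m1* to 0.98 for *Lefty1* with *Tbx3*. With control partners the median r was lower, at 0.73 over 21 pairs of libraries, from 0.31 for *Sox2* with *Ap1m1* to 0.90 for *Lefty1* with *Otx2*. These correlations describe 19 or 20 sequences each.

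Tested library by library, 65 of 142 control values differed from the baseline, 28 higher and 37 lower (limma, Benjamini-Hochberg over 583 values of all fragments, of which 80.3% were called). Replicates of a library share their plasmids and barcodes, so this test leaves out the error of the plasmids themselves. The sign-flip test over libraries, whose plasmids and barcodes differ, does not have this limit, though the pool of fragment pairs was common to them. The limma F test for a difference between promoters called 7 of 20 controls, against 81.6% of all 76 fragments and 55 of 56 enhancers. It carries the same limit, and it called 2 to 4 controls when 1 replicate was left out. Without the low combinations defined above, the calls for single libraries were 11 of 124.

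E6-shuffled3 and E27-shuffled1 varied most between promoters. E6-shuffled3 was at -0.88 ± 0.31 (SD, n = 3) in *Sox2*, with replicates of -0.87, -0.57 and -1.19, whereas it was -0.06 ± 0.14 in *Ap1m1*. The same contrast appeared beside enhancers, at -0.70 ± 0.14 in *Sox2* over 289 combinations and -0.09 ± 0.05 in *Ap1m1* over 374 (SD, n = 3). For E27-shuffled1, the 3 replicates were 0.42, 0.51 and 0.83 in *Sox2* and -0.36, -0.19 and -0.17 in *Ap1m1*. The groups of replicates did not overlap for either control. Both controls were picked for varying most between promoters, and replicates of a library share their plasmids and barcodes. Beside enhancers E27-shuffled1 was 0.16 ± 0.04 in *Sox2* and -0.20 ± 0.04 in *Ap1m1* (SD, n = 3). The adjusted p of the limma F test was 6.01e-05 for E6-shuffled3 and 1.89e-05 for E27-shuffled1. Without the low combinations 0 of the 16 controls that could be tested were called by the limma F test, and 0 had an unadjusted p under 0.05.

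The strand of a control changed its value, and it did so mainly in position 2, the position farther from the barcode. With control partners, and with both positions pooled, the exact sign-flip test found a difference between plus and minus for 6 of the 16 controls that could be tested, against 53.5% of all fragments. E27-shuffled1 (0.58), RandomE4 (0.50), E30-shuffled1 (0.34), RandomE5 (0.30) and E27-shuffled2 (0.27) were higher in the plus strand and E6-shuffled2 (-0.44) in the minus strand, each in 7 of 7 libraries. In this set both fragments nearly always had the same strand, so the strand of a control and that of its partner could not be told apart. Without the low combinations only 5 controls could be tested and none was called, 2 having an unadjusted p under 0.05 by the sign-flip test, and without *Fgf5* 9 of 16 were called. Beside enhancers matching and opposite strands were about equally frequent. There, in position 2, the strands differed for 17 of 20 controls (13 higher in plus and 4 in minus), against 75.3% of 77 fragments. In position 1 they differed for 8 of 20, against 52% of 75 fragments. These splits by position were chosen after the values had been seen.

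E27-shuffled1 and E6-shuffled1 had the largest strand differences, in opposite directions. In position 2 beside enhancers, E27-shuffled1 in *Lefty1* was 0.33 in the plus strand over 71 combinations and -0.85 in the minus strand over 58. The difference was 1.26, 1.29 and 0.97 in the 3 replicates. In *Ap1m1* it was 0.97, 1.13 and 1.03, although the enhancers had the smallest spread with this promoter. Over the 8 libraries the mean was 0.92 ± 0.31 (SD, n = 8), positive in each, with the smallest value in *Sox2* at 0.32 ± 0.06 (SD, n = 3). E6-shuffled1 was -0.99 in the plus strand and 0.36 in the minus strand in *Lefty1*, and -0.59 and 0.42 in *Ap1m1*. Its difference had replicates of -1.45, -1.32 and -1.28 in *Lefty1* and of -0.90, -1.08 and -1.06 in *Ap1m1*, and it averaged -1.12 ± 0.27 (SD, n = 7 libraries). Here too *Sox2* had the smallest difference, at -0.61 ± 0.11 (SD, n = 3). The adjusted p was 0.0150 for E27-shuffled1 and 0.0219 for E6-shuffled1 (exact test).

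Other controls differed between strands in position 2 in every library in which they were compared. RandomE4 averaged 0.89 ± 0.18, E95-shuffled3 0.77 ± 0.26, E30-shuffled1 0.72 ± 0.17 and RandomE3 0.55 ± 0.16 (SD, n = 8 libraries), whereas E6-shuffled2 was at -0.75 ± 0.25 (n = 8) and E95-shuffled2 at -0.49 ± 0.12 (n = 7). RandomE2, RandomE5 and E6-shuffled3, the 3 controls that were not called, had differences of -0.06, 0.07 and -0.16. In *Ap1m1* the differences of most of the called controls named here lay mainly in a strand with low values. RandomE4 was at 0.11 in plus and -0.51 in minus, E95-shuffled3 at 0.00 and -0.77, and RandomE3 at 0.01 and -0.61. E6-shuffled2 was at -0.62 and 0.15 and E95-shuffled2 at -0.48 and -0.06, while E30-shuffled1 was at 0.24 and -0.42. Between any 2 of the 7 libraries in which all 20 controls could be compared, the strand differences of the controls in position 2 had an r of 0.87 to 0.99 (median 0.98, 21 pairs of libraries).

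In position 1 the same controls differed less. E27-shuffled1 was 0.37 higher in the plus strand in *Lefty1* and 0.08 in *Ap1m1*, and E6-shuffled1 differed by -0.48 and -0.32. The absolute difference was larger in position 2 for 19 of 20 controls, and the test of position 2 minus position 1 called 15 of 20, against 57.3% of 75 fragments. With matching strands only, 11 were called, of which 9 were among the 15 with the same direction. The median absolute difference over the controls was 0.38 in position 2 and 0.07 in position 1. Over the enhancers it was 0.16 and 0.12, and their differences in the 2 positions had an r of 0.31 over 55 enhancers, compared with 0.87 over the 20 controls. Control-control combinations, on other plasmids, gave like values for position 2 but not for position 1. In position 2 with control partners, E27-shuffled1 differed by 1.24 ± 0.18 (SD, n = 6 libraries), RandomE4 by 0.99 ± 0.18 (n = 7) and E6-shuffled2 by -0.72 ± 0.30 (n = 7), and the 11 controls with at least 6 libraries had an r of 0.98 with their values beside enhancers. In position 1 that r was 0.21 over 12 controls. With control partners, E46-shuffled3 and RandomE5 differed more in position 1 (0.43 for both, n = 7 and 6 libraries) than in position 2 (0.05 and 0.10, n = 7 libraries). Partners in this set nearly always had the same strand, so these differences also hold those of the partners. Beside enhancers, E46-shuffled3 and RandomE5 differed by 0.09 and -0.02 in position 1, and by 0.17 and 0.07 in position 2.

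Position itself was also compared, and with control partners the controls were called about as often as all fragments. The median absolute difference was 0.17 over the controls and 0.16 over the enhancers. With control partners, E95-shuffled2 was 0.50 ± 0.16, E27-shuffled1 0.37 ± 0.24, RandomE2 0.28 ± 0.17 and E46-shuffled1 0.16 ± 0.12 higher in position 1 than in position 2 (SD, n = 7 libraries). E6-shuffled3 and E46-shuffled3 were lower in position 1, with differences of -0.54 ± 0.20 and -0.31 ± 0.14. These 6 of 16 tested controls had an adjusted p of 0.0456 (exact sign-flip test), and 34.3% of all fragments were called. With at least 10 combinations per value 3 of 12 were called, and without the low combinations none of the 8 that could be tested, either with the adjusted or with the unadjusted p of that test. Beside enhancers 17 of 20 controls were called, 8 higher and 9 lower in position 1, against 55.8% of all fragments. The largest difference there was that of E6-shuffled1, at 0.57 ± 0.23, and the most negative that of E6-shuffled3, at -0.38 ± 0.11 (SD, n = 8 libraries). Both strands were pooled in this test and were not balanced. In *Nanog* E6-shuffled1 had 24 plus and 81 minus combinations in position 1, and 65 and 18 in position 2. Its values there were -0.44 in plus and 0.01 in minus in position 1, and -0.96 and 0.43 in position 2. Its position difference therefore also holds its strand difference. RandomE3, RandomE5 and E27-shuffled1 were not called, the smallest difference being that of RandomE3 at -0.0031. The test beside enhancers was chosen after the values had been seen.

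The 5 random controls were on average slightly higher than the 15 shuffled ones, and a single control carried most of this. With control partners the difference was 0.09 ± 0.05 (SD, n = 7 libraries), above 0 in 7 of 7, and beside enhancers it was 0.09 ± 0.07 (n = 8), above 0 in 8 of 8 (adjusted p = 0.0313 for both, exact sign-flip test, 4 comparisons of classes adjusted together). The same sequences were in all libraries, so this test covers the spread between promoters and not that between sequences. The SD over the 5 random controls was 0.28 with control partners. The difference between classes was 0.16 in *Sox2* and 0.01 in *Ap1m1* with control partners. Without RandomE5 it fell to 0.02 (p = 0.516) with control partners and 0.01 (p = 0.688) beside enhancers (exact test). Without RandomE3 it was 0.19 and 0.17. With control partners it was also -0.0043 without the low combinations. Placing the random control in position 1 and the shuffled one in position 2, compared with the reverse, gave a difference of 0.09 ± 0.11 (SD, n = 7 libraries) that did not pass the test (adjusted p = 0.109, exact). Ordered pairs measured in both plus-plus and minus-minus were higher in plus-plus by 0.10 ± 0.08 (SD, n = 7 libraries, adjusted p = 0.0417, exact), in 6 of 7 libraries. This last difference was not stable, as it lay between 0.03 and 0.24 when each control was left out in turn and was -0.03 when combinations at 0 were kept with a pseudocount of 0.01.

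Single pairs differed more between their strand states than this average shows. In *Lefty1*, 55 of 144 ordered pairs were more than 1 log2 unit apart between plus-plus and minus-minus, and in *Ap1m1* 21 of 174. The r between both states of a pair ranged from -0.01 in *Nanog* to 0.48 in *Sox2* over 74 to 174 pairs. Single control-control combinations were noisy, with an r between replicates of 0.40 to 0.42 in *Lefty1* and 0.49 to 0.62 in *Ap1m1*. How much of these differences was noise was not tested.

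The 3 shuffles of a parent have exactly the same base composition, so differences among them arise at equal composition. Beside enhancers, the E30 shuffles ranged from -0.11 to 0.23 and the E95 shuffles from -0.37 to -0.05. The E46 shuffles were all on the high side (0.07 to 0.26) and the E6 shuffles all on the low side (-0.34 to -0.13). With control partners the means per parent were 0.18 for E46, 0.10 for E27, 0.01 for E30, -0.25 for E6 and -0.27 for E95, while the 5 random controls spanned the whole range from -0.37 to 0.37. The strand differences in position 2 also varied within a parent, from -0.49 to 0.77 for E95 and from -1.12 to -0.16 for E6.

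The G+C content of the controls ranged from 43.8% (E95) to 57.3% (E6) and the number of CpG dinucleotides from 18 to 43. Across the 20 controls, G+C content had an r of 0.16 and CpG number an r of 0.17 with the boost index with control partners. A relation was seen for the strand difference, in the excess of A and C over G and T on the plus strand, with an r of 0.76 in position 2 and 0.73 in position 1. The excess was -84 bases in the E6 shuffles, of which E6-shuffled1 and E6-shuffled2 were higher in the minus strand and E6-shuffled3 did not pass the test, and 56 bases in RandomE4, which was higher in the plus strand. This was the largest of 24 correlations computed, from 6 features and 4 values. Without the E6 shuffles, the r over the remaining 17 controls was 0.47 in position 2 and 0.35 in position 1. Since shuffles of a parent share their composition, the 20 points are not independent, and all of these are descriptions.

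Known binding motifs were searched on both strands of the designed bases, 12 in all, none of which contains another. The octamer ATGCAAAT bound by POU factors and the cyclic AMP response element TGACGTCA were in none of the controls. The ESRRB motif AAGGTCA was found in E30-shuffled1 and RandomE4, the AP-1 site TGACTCA in E95-shuffled3, the E-box CACGTG in E27-shuffled2 and the Klf motif GGGTGTGG in E6-shuffled1. The GC box GGGCGG was in E46-shuffled1 and RandomE4, and the polyadenylation signal AATAAA in E27-shuffled3, E46-shuffled1 and RandomE2. The ETS motif CCGGAAG occurred in 3 controls, the TATA motif TATAAA in 5, the homeodomain core ATTAGC in 7 and the YY1 core GCCAT in 9. In the first 300 designed bases, GGGCGG was found in 10% of controls, against 35.7% of 32851 mouse promoter windows of that length from RefSeq (GRCm38.p6), and GCCAT in 35% against 40.5%. ATTAGC was found in 20% against 6.73%, TATAAA in 15% against 13.6%, CCGGAAG in 5% against 8.86%, AATAAA in 5% against 19.6%, AAGGTCA in 10% against 4.72% and GGGTGTGG in 5% against 3.56%. None of these control windows held the AP-1 site, against 5.2% of promoter windows, nor the E-box, against 7.15%, the octamer, against 1.74%, or the cyclic AMP response element, against 1.79%. The shared start, which was not searched, also holds GCCAT, so every control carries it there. In the designed bases of the 3 highest controls, RandomE5 held none of the 12 motifs, E46-shuffled2 held GCCAT, and RandomE2 held that motif, the homeodomain core and the polyadenylation signal.

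The baseline of a promoter, a median over many pairs, moved little when any one control was left out. The shift was -0.17 (RandomE5, *Lefty1*) to 0.10 (E46-shuffled1, *Fgf5*) on the log2 scale. In 7 of the 8 libraries the largest downward shift came from leaving out RandomE5. Combinations of random controls alone gave a higher baseline by 0.32 in *Lefty1* (22 combinations), 0.24 in *Klf2* (24) and 0.03 in *Ap1m1* (29), and shuffled controls alone a lower one by 0.02 to 0.09 in the 7 libraries other than *Fgf5*. The shift with random controls alone was larger than the SD of the baseline over replicates in *Lefty1* (0.08) and *Klf2* (0.11), as well as in *Sox2* (0.17 against 0.02, with 7 combinations) and *Nanog* (0.18 against 0.17, with 16), but not in *Tbx3*, *Otx2* or *Ap1m1*. That SD describes the level of the baseline and is not the error of the shift. The boost indices of the random-random combinations had an SD from 0.43 in *Ap1m1* to 0.84 in *Sox2*. A baseline from the partners of 1 control would depend strongly on the choice. In *Sox2*, combinations with E27-shuffled1 had a median activity 2.76 times that of combinations with E6-shuffled3, and in *Ap1m1*, those with RandomE5 were 1.58 times those with E6-shuffled1.

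The identities of both fragments with their strands described 48.6% to 66.9% of the variance of control-control combinations in the 7 libraries (adjusted for the number of coefficients), and 29.1% to 43.9% without the strands. What remained was poorly shared between replicates (r of 0.05 to 0.31) and between libraries that measured the same combination (median r of 0.05 over 21 pairs of libraries with 182 to 331 shared combinations). The boost indices themselves had a median r of 0.54 between libraries over the same combinations. The SD of the boost index over control-control combinations was 0.54 in *Ap1m1* and 0.87 in *Lefty1*. All 3 replicates exceeded 1 in 34 combinations and lay below -1 in 51.

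The highest control-control combinations did not recur at that level in other libraries. They were picked for being highest, so lower values elsewhere were likely from this choice alone. The highest was E27-shuffled2 in minus with E46-shuffled1 in plus, in *Klf2*, with replicates of 2.19, 2.69 and 2.60. It was one of the opposite-strand combinations and was measured in no other library, and the same pair in 2 other strand states of *Klf2* was at -0.27 and -0.17. RandomE5 with E46-shuffled1, both in minus, had replicates of 2.39, 2.35 and 2.49 in *Tbx3*, and -0.04 to 1.05 as means in 4 other libraries. E46-shuffled2 with E95-shuffled1, both in plus, reached 1.72, 2.51 and 2.67 in *Lefty1*, compared with -0.33 to 0.54 in 5 others. In the latter 2 combinations every replicate lay above all the other libraries' means, but replicates of a library share their plasmids and barcodes.

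The 3 lowest were all in *Sox2* and all contained E6-shuffled3. With E95-shuffled1 in position 2, both in minus, the replicates were -2.22, -3.31 and -4.07, and both in plus they were -5.84, -0.53 and -2.18. RandomE3 with E6-shuffled3 in position 2, both in plus, had -1.70, -2.76 and -4.05. These replicates spread over more than 1 log2 unit each. The pair of E6-shuffled3 and E95-shuffled1 was also below the baseline in the other libraries that measured it, at -1.38 to -0.50 in minus (6 libraries) and -1.68 to -0.41 in plus (5 libraries), while RandomE3 with E6-shuffled3 was between -0.65 and 0.04 in 6 others.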

How the data were processed

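Activities of 110180 combinations of fragments and promoters were measured in E14TG2a cells, in 3 biological replicates for each of 8 libraries. The authors aligned inverse PCR reads to the fragment sequences with Bowtie2 (the labels list mm10 as the build), clustered barcodes, divided barcode counts by the total of each sample, took the cDNA over pDNA ratio for each barcode and averaged it over at least 5 barcodes with at least 8 pDNA counts. The deposited activity is this ratio, with both sequencing runs in 1 value for each replicate. Barcode numbers are not in the table, so no counting error could be given. The authors' columns of baselines, boost indices and expected activities were not used.

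Controls were grouped by their names and samples by the labels. Combinations above 0 in each replicate were taken, as log2. A value needed at least 5 combinations. Tests used Python 3.11.15, numpy 2.4.6, pandas 2.3.3 and limma 3.58.1 and were tested on simulated data. The adjusted p threshold was 0.05. Values with control partners, beside enhancers, by position and by strand were compared with 0 by flipping the signs of the libraries in all ways (exact permutation test, at least 6 libraries), and single libraries with limma, adjusted over all fragments. Replicates of a library were transfections on different days with the same plasmids, and the pool of fragment pairs was common to the libraries, so p-values cover the spread between promoters or between transfections. Named were all controls called in both settings, the 3 highest and the 3 lowest, those with the largest or smallest strand and position differences, the shuffles of E46 and E95, and the 3 highest and 3 lowest combinations with replicates on one side of the baseline. The members and lists were chosen with earlier results of these data known. Parent elements were not compared with their shuffles, since the sequences of the parents were not analysed here, which left 4 comparisons of classes. The splits of strand by position, the position difference beside enhancers and leaving out single controls were chosen after seeing the data. Alternatives comprised leaving out replicates, a replicate block, means, minima of 3 and 10 combinations, a pseudocount, a filter on the lowest 5% of activities in a library, omission of *Fgf5*, same strands only, a least-squares fit and other baselines.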

Additional observations from a re-analysis of the deposited data

Results flagged for a closer look

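For 7 of 20 controls the boost index with control partners differed between promoters by the limma F test (adjusted over 76 fragments). E27-shuffled1 (adjusted p = 1.89e-05) ranged from -0.24 in *Ap1m1* to 0.59 in *Sox2*, and E6-shuffled3 (adjusted p = 6.01e-05) from -0.88 in *Sox2* to 0.13 in *Fgf5*, the latter over 7 combinations. E46-shuffled1 (adjusted p = 0.00394) ranged from -0.04 in *Lefty1* to 0.30 in *Tbx3*, and E46-shuffled3 (adjusted p = 0.0122) from -0.24 in *Fgf5* (5 combinations) to 0.27 in *Ap1m1*. RandomE4 (adjusted p = 0.0123) ranged from -0.10 in *Ap1m1* to 0.33 in *Sox2*, E95-shuffled3 (adjusted p = 0.0171) from -0.59 in *Nanog* to 0.03 in *Sox2*, each over 5 combinations, and RandomE3 (adjusted p = 0.0216) from -0.56 in *Sox2* to -0.24 in *Otx2*. *Sox2* was the highest or the lowest library for 5 of these 7. For E95-shuffled3 the *Sox2* replicates were 0.12, -0.30 and 0.27, and its values beside enhancers were -0.21 in *Nanog* and -0.11 in *Sox2*. The number of calls was 2 to 4 when 1 replicate was left out, and 0 of 16 (0 also at an unadjusted p under 0.05, limma F test) without combinations below the 5th percentile of activity.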

How the results depend on the processing

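Calls of controls beside enhancers numbered 15 or 16 and calls of the strand difference in position 2 numbered 16 to 18 of 20 in every alternative run. Calls of position 2 minus position 1 fell from 15 to 11 with matching strands only, 9 of them shared with the same direction. Most changes came from leaving out combinations below the 5th percentile of activity of a library, which kept 1341 of 2508 control-control combinations. As this filter cut on the compared activity itself, it took out the low values of controls. Under it 11 of 124 values in single libraries were called by limma (65 of 142 otherwise), 0 of 16 controls differed between promoters by the limma F test (7 otherwise, and 0 also at an unadjusted p under 0.05), 1 of 16 was called over promoters (10 of 20 otherwise), and 0 of 8 for position and 0 of 5 for strand (6 of 16 each otherwise, with 0 and 2 at an unadjusted p under 0.05, sign-flip test). The difference of random and shuffled controls with control partners was then -0.0043, that of plus-plus and minus-minus 0.0765, and RandomE2 with control partners -0.022. The plus-plus difference was -0.0266 with combinations at 0 kept, and 0.0784 with means over combinations. A minimum of 10 combinations left 3 of 12 calls for position, and a limma contrast called 18 of 20 controls over promoters. The cause was not tested. The plus-plus difference also failed the exact test without E27-shuffled1 (0.0477), E27-shuffled2 (0.0661), E30-shuffled1 (0.0657), E46-shuffled2 (0.0889), E46-shuffled3 (0.0413), RandomE2 (0.119), RandomE3 (0.0315), RandomE4 (0.0326) or RandomE5 (0.0474). Without RandomE5, random minus shuffled was 0.0176 with control partners and 0.0115 beside enhancers.

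Leaving out 1 replicate gave 2 to 4 controls that differed between promoters and 47 to 52 calls in single libraries. It gave 0.0661 to 0.115 for random minus shuffled with control partners, 0.081 to 0.113 beside enhancers, and 0.0883 to 0.110 for plus-plus minus minus-minus, the latter not passing without replicate 2 or 3 and the first not without replicate 2. With a replicate block 64 values in single libraries were called, against 65, and no other count changed, the sign-flip values being unchanged by construction. Replicate numbers did not pair the libraries, as deviations of libraries with the same number had a median r of -0.04 over 63 pairs, 21 of them over 0.1. Apart from leaving out single controls, 129 comparisons of a count or class difference with its alternatives stayed on their side of the threshold or, for counts, within 1.5 times the main value. Of the others, 10 counts moved further, 5 class differences no longer passed and 2 changed sign. Barcode numbers were not in the table, so the depth behind a value is unknown.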

Other observations

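The designed bases of different controls had little sequence in common. The longest run shared by any 2 of them, on either strand, was 14 bases, in E30-shuffled1 and E6-shuffled1. Over all libraries, 669 control-control combinations lay above and 665 below the baseline in all 3 replicates, which together were 53.2% of the 2508 analysed.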
